A study of Xenopus laevis with 11 samples.

Results

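Broad H3K4me3 domains that hold p300 were examined in early gastrulae of Xenopus laevis, the African clawed frog. A domain was taken when its H3K4me3 interval, as found in both replicates, was 2500 bp or wider, lay on an L or S chromosome and overlapped a p300 interval found in both replicates by at least 1 bp. Of 22191 such H3K4me3 peaks on these 18 chromosomes, 2352 were broad, or 10.6%, and 1363 of the broad ones were at p300. The width of the H3K4me3 peak and its overlap with p300 chose the domains and are therefore given below as descriptions without a test. The position and the width of the p300 intervals inside were tested. Those tests used intervals selected by that overlap, in groups set by that width.

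H3K4me3 is the trimethylated form of lysine 4 on histone H3, laid down mainly by SET1 and MLL complexes around the start sites of active and poised genes. p300 is a coactivator that acetylates histones and other proteins and is recruited by transcription factors to enhancers and promoters. In mammalian cells, unusually broad H3K4me3 domains are known for covering genes that define the identity of the cell. In the gastrula, zygotic transcription has begun and the germ layers are being laid out, so a whole embryo mixes several kinds of cell.

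The libraries came from whole embryos at Nieuwkoop-Faber (NF) stage 10.5, in pools of 35 to 90 embryos fixed for 30 minutes in 1% formaldehyde. Peak lists of 2 H3K4me3 and 2 p300 replicates were used. The 7 samples for H3K4me1, H3K36me3, RNA polymerase II and input were not analysed here. The labels name no strain, treatment or clutch, so the spread between replicates may be technical. Replicate 1 and replicate 2 had 32821 and 27267 H3K4me3 peaks, and 35127 and 58614 p300 peaks. The lists hold positions only, so the depth of the libraries is unknown and a peak is present or absent with no height. Genes and sequences under the domains, and any check of the embryo's cell types, were not analysed here. The gene table at hand could not be matched to the coordinates of the files. Coordinates count from 1 and follow the build of the files, which they do not name.

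The domains differed greatly in how p300 was laid out in them. The widest lay on chromosome 2S from 128313726 to 128323506 and measured 9781 bp. It held a single p300 interval found in both replicates, covering 110 bp or 1.12% of it, at its right-hand edge. Replicate 1 had 2 p300 calls there and replicate 2 had 1. The further replicate 1 call lay inside the domain, 1244 to 1480 bp from its centre. In contrast, a domain of 7194 bp on 2L, from 76044603 to 76051796, overlapped 7 p300 intervals that covered 43.2% of its bases. Those 7 intervals came from 6 calls in replicate 1 and 4 in replicate 2, and they reduce to 3 sites when pieces of 1 call are joined. The domain with the largest share of bases under p300, 2548 bp on 8L from 2173513 to 2176060, was covered to 75.9% by 3 p300 intervals, and each replicate had 3 calls there.

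**Figure D1:**
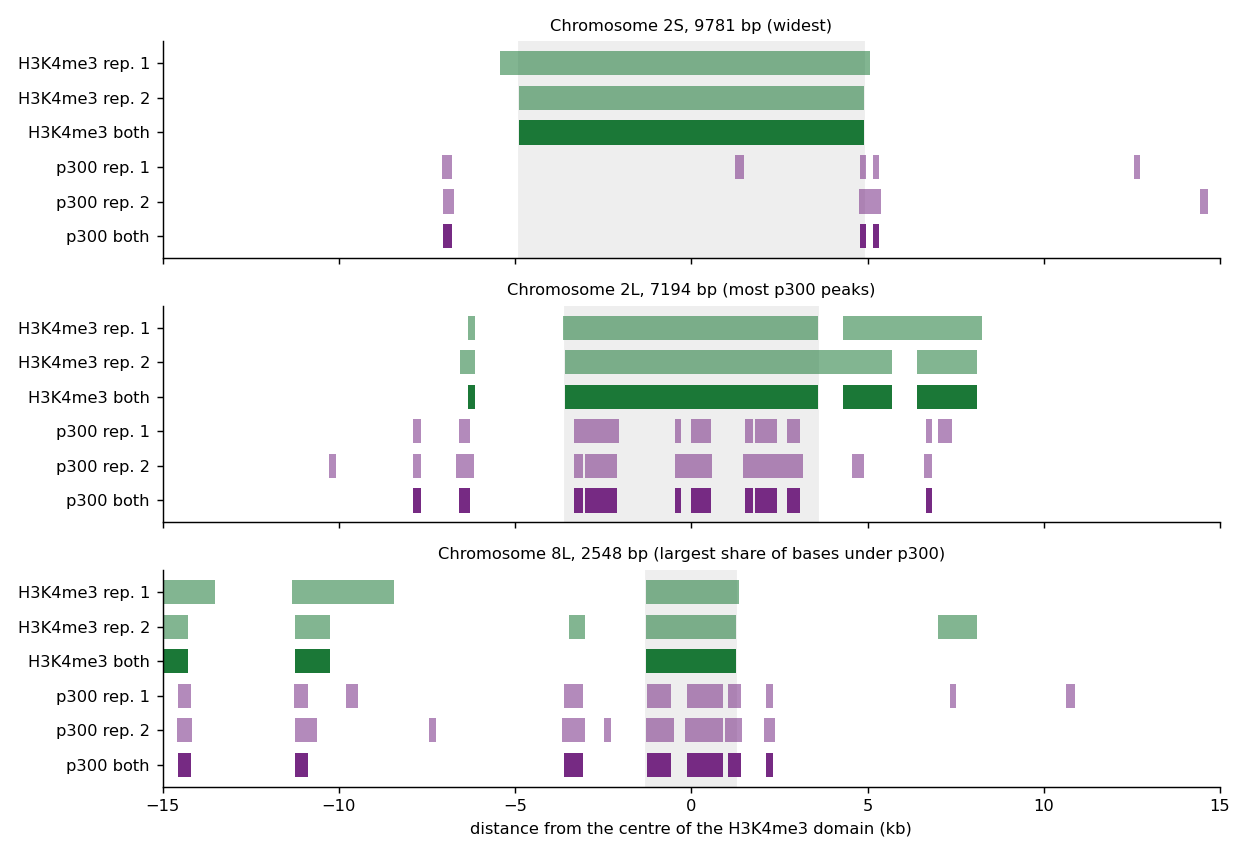
Peak intervals of H3K4me3 (green) and p300 (purple) in each replicate and in both, drawn to scale within 15 kb of the centre of 3 broad domains (grey band); the horizontal axis is the distance from the centre in kb. p300 found in both replicates sits at an edge of the 9781 bp domain on 2S but covers 43.2% and 75.9% of the domains on 2L and 8L.

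The domains had a median width of 3375 bp, with quartiles of 2896 and 4148 bp. The narrowest, of 2502 bp on 8L from 57931313 to 57933814, overlapped 2 p300 intervals. The next were of 2503 and 2504 bp, both on 4S. Just below the limit, p300 was present at peaks of 2498 bp on 5L, 2496 bp on 9_10L and 2495 bp on 8S. Broad peaks without p300 had a median of 3027 bp and reached 7272 bp. The 10 widest domains were 7456 to 9781 bp wide, and they held from 1 p300 interval (on 2S and on 3S) to 6.

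Several of the widest domains combined width with many p300 calls, and others did not. The domain of 8773 bp on 4S, from 109902540 to 109911312, overlapped 5 p300 peaks in replicate 1 and 4 in replicate 2. On 9_10L, from 21650824 to 21659322, a domain of 8499 bp overlapped 3 and 4. The 7518 bp domain on 5L from 56907795 to 56915312 overlapped 5 and 3 and had no p300 site in its 10 kb flanks. On 8L, 5 p300 intervals covered 40.8% of the 7456 bp domain from 997104 to 1004559. At the other end stood the 7362 bp domain on 6L from 124220599 to 124227960, the widest of its chromosome, where a single interval covered 2.16% of the bases although replicates 1 and 2 had 3 and 2 p300 peaks there. The widest domain of each chromosome measured from 6025 bp on 7S to 9781 bp on 2S. Their nearest H3K4me3 neighbours were between 713 bp (2L) and 247082 bp (1L) away, so wide domains occurred both in isolation and beside other peaks.

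Among broad peaks, wider ones more often held p300 and held more of it. The share rose by class from 48.3% (Wilson 95% interval 45.0 to 51.5%) between 2500 and 2999 bp to 79.9% (73.4 to 85.1%) at 5000 bp or more, against 25.2% of all H3K4me3 peaks. From 2000 to just under 2500 bp it was 34.7% (32.4 to 37.0%). Longer intervals offer more bases to overlap. The number of p300 centres per kb was 0.228 (Poisson 95% interval 0.209 to 0.247) in the class from 2500 bp and 0.316 (0.283 to 0.352) from 5000 bp, and both measures rest on the width and the overlap that chose the domains. Both kinds of interval cover counting error only, as if peaks were independent.

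**Figure D2:**
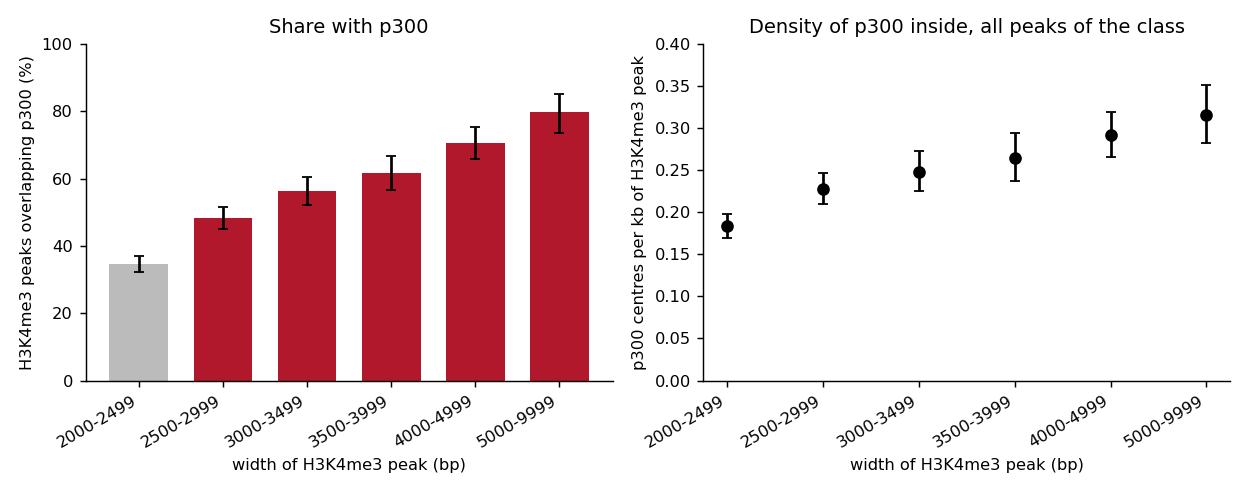
Left, the percentage of H3K4me3 peaks that overlap p300, by width class, with Wilson 95% intervals; grey marks the class below the 2500 bp limit. Right, p300 centres per kb of H3K4me3 peak over all peaks of the class, with or without p300, with Poisson 95% intervals; both measures rise from 48.3% and 0.228 per kb in the class from 2500 bp to 79.9% and 0.316 per kb in the widest class.

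Each domain lies within 1 H3K4me3 call of each replicate by construction, since the intervals are the bases that a call of each shares. The replicate 1 call was the wider in 1085 of the 1363 domains (79.6%), and both calls were within 10% of each other in 623 (45.7%). Median widths were 4026 bp in replicate 1 and 3477 bp in replicate 2. Broad peaks without p300 were similar, with replicate 1 wider in 76.6% and calls within 10% in 46.2%. Over all H3K4me3 peaks the medians were 1497 and 1182 bp, so wider replicate 1 calls were not particular to the domains. The calls differed by more than 2 times in 0.607% of broad peaks without p300 and in 34 domains (2.49%). The most uneven domains were 3 neighbours on 1S, of 3101, 3391 and 2519 bp between 126979111 and 126991541, which replicate 1 called as a single peak of 12731 bp. The replicate 2 calls of these 3 domains were exactly their widths. The same rule applied to the lists of replicate 1 alone gave 2466 domains and to those of replicate 2 alone 1872. Both sets contain all 1363 domains, since each replicate's call is at least as wide as the part both share.

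Most domains held few p300 sites. A single p300 interval was present in 785 domains (57.6%), 2 in 393, 3 in 119 and 4 or more in 66. Of all H3K4me3 peaks, with or without p300, 4.52% held 2 or more. Among peaks with p300 of at least 1000 but under 2500 bp, 14.4% did. Every domain held at least 1 by the rule, and these shares do not allow for width. Because the intervals are the parts shared by both replicates, a call of 1 library can be cut into several. With such pieces joined, the 2221 intervals became 2059 sites, and 513 domains (37.6%) had 2 or more sites in place of 578 (42.4%). By joined sites the richest was the 7794 bp domain on 9_10L from 94105871 to 94113664, with 6 sites from 6 calls in replicate 1 and 8 in replicate 2. It was followed by 6 domains with 5 sites each.

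p300 covered a median of 10.4% of a domain, with quartiles of 6.34 and 16.8%. The median was 15.5% in peaks with p300 of at least 1000 but under 2500 bp. In peaks with p300 under 1000 bp it was 36.7%, so the domains were the least covered of these groups. This share divides by the H3K4me3 width that set the groups, and every peak in them held p300 by selection. The part of width in that order was not tested. In the 578 domains with several intervals, the outermost centres spanned a median of 46.3% of the width (quartiles 23.2 and 69.1%), and neighbouring centres were a median of 1003 bp apart. When there were exactly 2 intervals they lay on opposite sides of the domain's midpoint in 204 of 393 cases, or 51.9% (Wilson 95% interval 47.0 to 56.8%).

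Further p300 peaks were called at the domains in 1 library alone. Replicate 1 added such a peak at 259 domains (19.0%) and replicate 2 at 357 (26.2%), compared with 9.47% and 13.2% of all H3K4me3 peaks. The broad peaks classed as without p300 had them too, at 189 of 989 (19.1%) for replicate 1 and 316 (32.0%) for replicate 2. These shares do not allow for width, with medians of 3375 bp for the domains and 1117 bp for all H3K4me3 peaks. Per kb, replicate 1 alone gave 0.0593 peaks in the domains and 0.0694 in broad peaks without p300. In peaks with p300 of at least 1000 but under 2500 bp it gave 0.0559. For replicate 2 the values were 0.0855, 0.114 and 0.0576. In neither replicate was p300 called at 532 of those 989 peaks, 53.8%. Both replicates had a p300 call at 53 of the 989 (5.36%), but no shared p300 interval overlapped the peak. The group without p300 is thus defined by the absence of a shared call, and many of its peaks carried p300 in a single library.

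Relative to their width, the broad domains held fewer p300 centres in the middle than nearer the edges. The central 50% of the width held 41.8% ± 4.29 (SD over 9 chromosome pairs) of the p300 centres, from 31.1% in pair 8 to 45.9% in pair 4, and thus fewer than an even spread would give in 9 of 9 pairs. In medium-width H3K4me3 peaks with p300, of at least 1000 but under 2500 bp, the central 50% held 63.3% ± 2.91. The difference was -21.5 percentage points (SD 5.63, below 0 in 9 of 9 pairs, exact sign-flip p = 0.00391, adjusted p = 0.00625). This p is the smallest that 9 pairs allow, and it measures regularity over chromosomes, not over batches of embryos. Position here is relative to the width of the peak, which also defines the groups. The test therefore cannot separate a difference in position from the difference in width.

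With each domain divided into 10 equal parts along the chromosome, the centres had 2 maxima, in part 2 with 11.8% and in part 9 with 14.8%, and a minimum of 7.26% in part 6. The outermost parts held 10.2% and 10.3%, close to an even share. The medium-width peaks had a single broad maximum, with 13.7% in part 4 and 4.78% in each outermost part. Measured in base pairs, p300 centres lay farther from the nearest edge in the broad domains, at a median of 764 bp, than in the medium peaks, at 464 bp. Both groups were densest some way inside the edge. The density was highest between 500 and 750 bp inside the nearest edge of the broad domains, at 0.594 ± 0.057 centres per kb, and between 250 and 500 bp inside the medium peaks, at 0.864 ± 0.054. It was lower in the outermost 250 bp of both. In the 394 domains of 4000 bp or more the density fell from 0.548 per kb (Poisson 95% interval 0.478 to 0.626) at 500 to 1000 bp to 0.297 (0.246 to 0.356) at 1500 to 2000 bp from the edge. The groups compared for relative position differ in width by their definition, and the part of width in that difference was not tested.

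**Figure D3:**
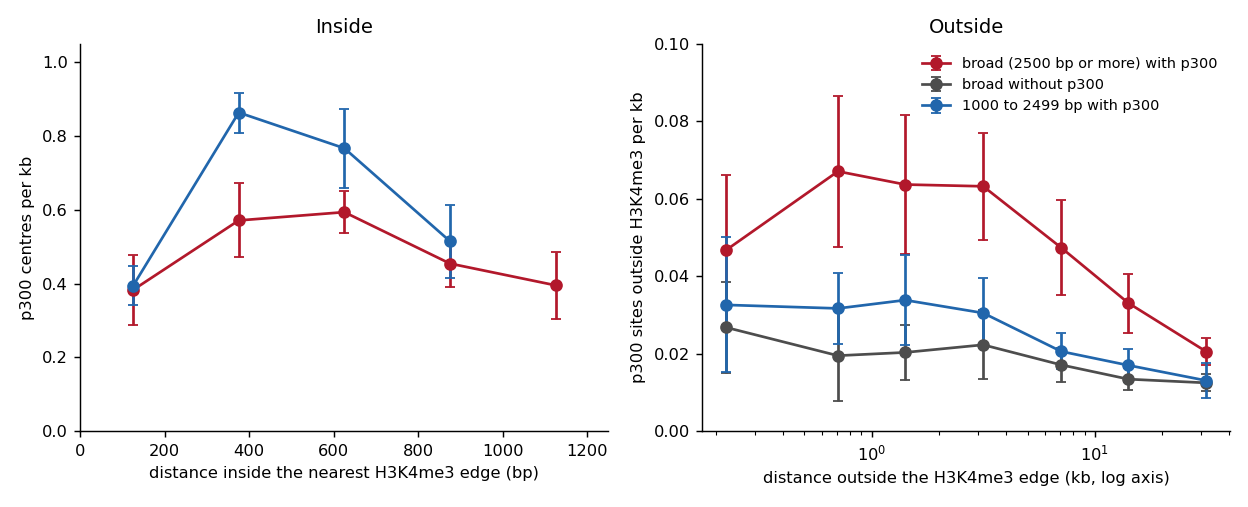
p300 density by distance from the H3K4me3 edge, as the mean and SD over 9 chromosome pairs. Inside (left), p300 centres per kb peaked at 0.594 in broad domains (red) and at 0.864 in medium-width peaks (blue); outside (right, log distance axis), p300 sites away from any H3K4me3 peak had their highest mean density around broad domains with p300 (red) at every distance drawn.

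p300 intervals at the broad domains were also somewhat wider than those at medium peaks, with medians over the chromosome pairs averaging 260 and 227 bp. The log2 ratio was 0.19 ± 0.09, or 1.14-fold, above 0 in 9 of 9 pairs (exact sign-flip p = 0.00391, adjusted p = 0.00625). The p300 intervals were selected by their overlap with H3K4me3, and the groups by its width. The part of that selection in the difference was not tested. Over all domains the median was 260 bp, with quartiles of 185 and 362 bp, compared with 204 bp for p300 outside H3K4me3. At narrow H3K4me3 peaks, under 1000 bp, the median was 256 bp (quartiles 188 and 338 bp). p300 intervals of this width were therefore not particular to broad domains. Within the domains, intervals centred in the outer 50% of the width had a median of 265 bp and those in the central 50% of 250.5 bp.

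The surroundings of the domains, which the rule did not use, were rich in p300. In the 10 kb on either side, counting only sites and bases outside every H3K4me3 peak, there were 0.0547 ± 0.00998 p300 sites per kb around broad domains with p300 (mean ± SD over 9 pairs). Broad peaks without p300 had 0.0196 ± 0.00293. The log2 ratio was 1.47 ± 0.31, or 2.78-fold, and ranged from 1.14 in pair 4 to 1.88 in pair 7 (9 of 9 pairs, exact sign-flip p = 0.00391, adjusted p = 0.00625). Around medium-width peaks with p300 the density was 0.0260 ± 0.00684, lower than around the broad domains by a log2 ratio of 1.09 ± 0.22, or 2.13-fold (9 of 9 pairs, same exact p and adjusted p). The chromosome pairs did not overlap between broad domains with p300 and broad peaks without.

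**Figure D4:**
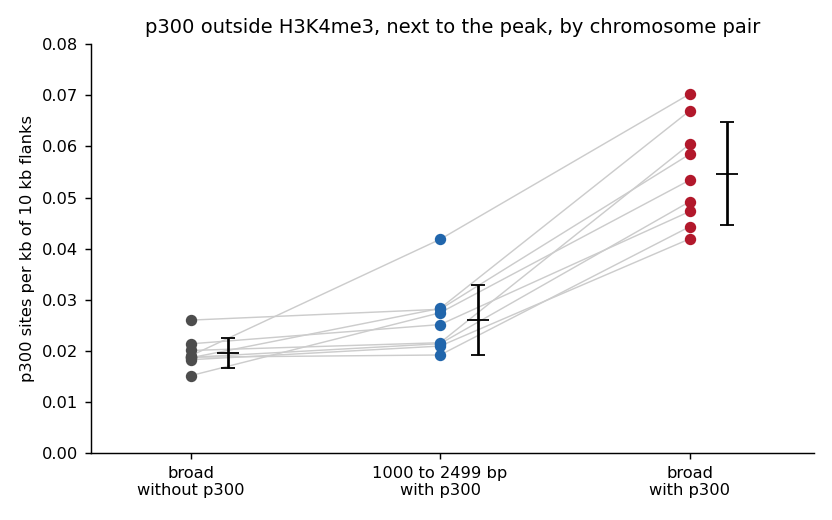
p300 sites per kb of the 10 kb flanks, outside every H3K4me3 peak, with 1 point per chromosome pair, grey lines joining the same pair, and bars for the mean and SD over 9 pairs. Broad domains with p300 average 0.0547 per kb, and broad peaks without p300 average 0.0196.

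A flanking p300 site was present at 739 of the 1363 domains (54.2%), compared with 26.8% of broad peaks without p300 and 22.6% of all H3K4me3 peaks. The share was 29.8% for medium-width peaks with p300 and 15.1% for those without. For narrow peaks it was 37.9% with p300 and 18.5% without. A higher share at peaks with p300 than at those without was therefore not particular to broad domains. Both flanks held sites at 194 domains and 1 flank at 545. The flanks of 38 domains (2.79%) held 5 or more sites. Those of 0 of the 989 broad peaks without p300 did, which allows a share of up to 0.303% by the limit of 3 counts that a count of 0 sets, and of up to 0.387% by the Wilson 95% interval. Among medium-width peaks with p300, 21 of 2596 (0.809%) held 5 or more. The share over all H3K4me3 peaks was not computed. The richest of the domains were a 4773 bp domain on 7S from 16929882 to 16934654 and a 3834 bp domain on 9_10S from 84263884 to 84267717, with 8 sites each. Single medium-width and narrow peaks with p300 had up to 12 flanking sites, so rich flanks were not particular to the domains. The flank density was 0.0441 per kb for domains with 1 interval inside, 0.0659 for 2, 0.0739 for 3 and 0.0804 for 4 or more, given without a test. Width went with both: the median width was 3187 bp for 1 interval inside and 4878.5 bp for 4 or more, and the flank density of the domains was 0.0399 per kb in the class from 2500 bp and 0.0743 from 5000 bp. The parts of width and of the number inside were not told apart.

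The excess reached well beyond the nearest bases. Around the domains the density was 0.0632 ± 0.0138 per kb at 2 to 5 kb, 0.0474 ± 0.0123 at 5 to 10 kb and 0.0205 ± 0.0035 at 20 to 50 kb. The corresponding values for broad peaks without p300 were 0.0223 ± 0.0089, 0.0171 ± 0.0045 and 0.0125 ± 0.0022. At 2 to 5 kb, medium-width peaks differed too, with 0.0305 ± 0.0092 for those with p300 and 0.0114 ± 0.0027 for those without. A p300 call of 1 library that runs across an edge can leave a piece on either side, as at the widest domain on 2S. With the 2 kb next to each peak left out, the log2 ratio between broad peaks with and without p300 was 1.48 ± 0.38. Since the domains with p300 were also wider, the comparison was repeated within width classes between 2500 and 5000 bp and gave 1.36 ± 0.31. Both alternatives were chosen after the data had been seen, and both kept an adjusted p of 0.00625.

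The side of the flanking sites was compared with that of the site inside, in a test added after the data had been seen. Among 264 domains with 1 p300 centre inside and sites in 1 flank, the inside centre was on the side of that flank in 145, or 54.9%. The mean over pairs was 55.1% ± 13.8, above 50% in 6 of 9 pairs (exact sign-flip p = 0.293, adjusted over 10 tests 0.326), so a preference was not detected. For domains with another H3K4me3 peak within 10 kb on 1 side, the centre was on that side in 98 of 213, 46.0% (mean over pairs 46.0% ± 9.1, exact p = 0.215, adjusted 0.278).

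Other H3K4me3 peaks were more often near the domains as well. A further H3K4me3 peak lay within 10 kb of 521 domains (38.2%) and of 26.0% of the broad peaks without p300, with 30.9% for all H3K4me3 peaks. The mean difference over pairs was 12.8 percentage points (SD 6.47, above 0 in 9 of 9 pairs, exact sign-flip p = 0.00391, adjusted p = 0.00625). It was smallest in pair 5, with 5.12 points, and largest in pair 7, with 23.4. Much of the difference was at short range: gaps of 500 to 2000 bp were found at 20.2% of the domains (Wilson 95% interval 18.2 to 22.5%) and 9.61% of the others (7.92 to 11.6%). The share of such gaps over all H3K4me3 peaks was not computed. At 103 of the 521 domains, every neighbour within 10 kb shared a call of 1 replicate with the domain. When these pairs were not counted, the difference was 9.42 points and kept its adjusted p. Narrow H3K4me3 peaks with p300, under 1000 bp, had a neighbour still more often, in 47.7%, against 34.4% of narrow peaks without p300. For medium-width peaks the shares were 32.3% with p300 and 22.7% without. Neither a close neighbour nor its higher share at peaks with p300 was therefore particular to broad domains.

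Most broad domains had no other broad peak within 100 kb, as was also true of most H3K4me3 peaks. Another broad H3K4me3 peak lay within 100 kb of 392 domains (28.8%) and of 27.0% of broad peaks without p300, compared with 25.2% of all H3K4me3 peaks. The mean difference of 2.34 percentage points (SD 5.53) did not pass (6 of 9 pairs, exact sign-flip p = 0.223, adjusted p = 0.254). With domains of at least 3000 bp it was 6.56 points and passed the exact test (adjusted p = 0.0357), whereas the replicate 1 lists alone gave -1.22. When domains with p300 at most 20 kb apart were grouped, 1271 stood alone, 40 groups had 2 and 4 groups had 3. No such grouping was made for other H3K4me3 peaks, so these counts do not set the domains apart. The fullest 100 kb window, on 7L from 1745552 to 1845551, held 4 domains of 2572 to 2836 bp with 10 p300 intervals between them, and 17 p300 intervals in all. The 2L window from 75981901 to 76081900 and the 8L window from 2144350 to 2244349 held 3 domains each, with 18 and 10 p300 intervals at them. Windows with 3 domains began at 13 domains in all, so these were taken from a tie by the number of p300 intervals at their domains.

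The frog's genome is allotetraploid, and each homeologous pair of its chromosomes has a longer (L) and a shorter (S) copy. The domains were more numerous on L, with 802 against 561 on S and a mean log2 ratio of 0.53 ± 0.27 over 9 pairs. All H3K4me3 peaks leaned to L too, by 0.37 ± 0.088 or 1.29-fold, in 9 of 9 pairs. For the domains the ratio was above 0 in 8 pairs and 0 in pair 5, which had 67 domains on each chromosome. Pair 8 had the largest, with 102 on 8L and 56 on 8S. Per Mb of span, which ends at the last peak and is a lower bound of the chromosome's length, the ratio was 0.26 ± 0.25. The domains were densest on 8L, at 0.849 per Mb, and sparsest on 4S, at 0.404.

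**Figure D5:**
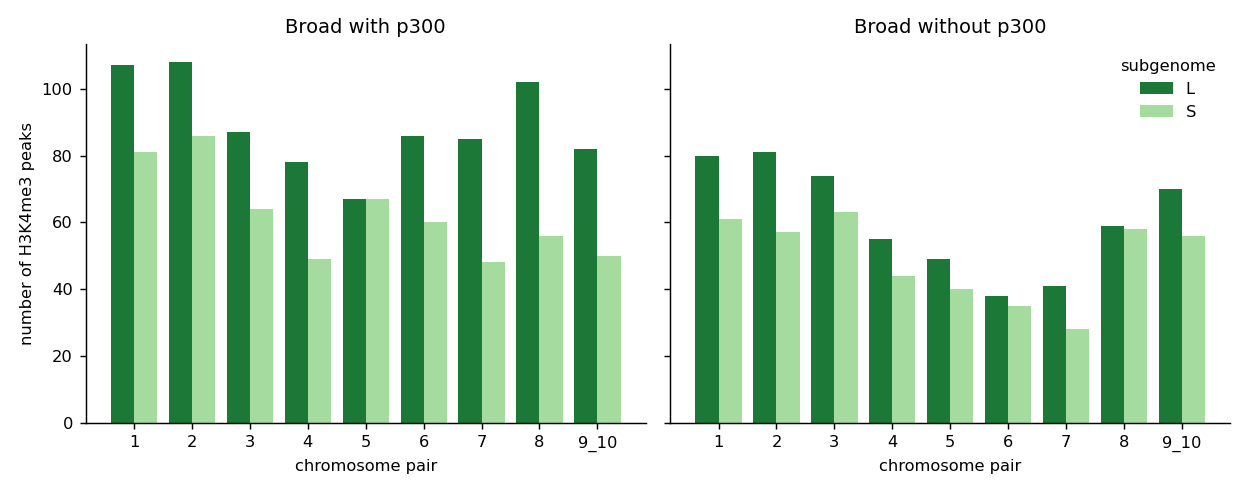
Number of broad H3K4me3 peaks with p300 (left) and without p300 (right) on the L and S chromosome of each pair. Broad domains with p300 number 102 on 8L and 56 on 8S but 67 on both members of pair 5.

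Relative to broad peaks without p300, whose log2 ratio was 0.31 ± 0.17, the domains leaned further to L by 0.22 ± 0.34, but this did not pass (7 of 9 pairs, exact sign-flip p = 0.082, adjusted p = 0.109). The call depended on the selection. Without pair 5 the difference was 0.29 with an adjusted p of 0.0313, and for a minimum width of 3000 bp it was 0.42 with an adjusted p of 0.0357. From 4000 bp it was 0.69 ± 1.13 and did not pass the same exact test (adjusted p = 0.121). Of the broad peaks on L, 59.5% held p300 (Wilson 95% interval 56.8 to 62.0%), and on S 55.9% (52.8 to 59.0%). The chromosomes ranged from 47.2% on 9_10S and 49.1% on 8S to 67.5% on 7L and 69.4% on 6L.

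Domains on the subgenomes were similar in size and content, with no test made of these values. Median widths were 3378 bp on L and 3372 bp on S, the mean number of p300 intervals was 1.65 and 1.60, and the flank density was 0.0532 and 0.0566 per kb. The contrast in flank density between broad peaks with and without p300 was 1.47 ± 0.43 on L and 1.60 ± 0.64 on S on the log2 scale. Their difference of -0.13 ± 0.87 did not pass (exact sign-flip p = 0.672, adjusted p = 0.672), and its spread over the pairs is too wide to show that the subgenomes are equal.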

How the data were processed

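The authors made peak lists from sequenced reads; the submitters' processing notes name MACS2 (2.1.0.20140616), BWA (0.7.10-r789) and bedtools, with no role for each. Their settings, threshold, control and genome build are not given in the sources. The deposited files are peak positions in bp, with no signal value. When checked against the replicate lists, all 24948 H3K4me3 and 25010 p300 intervals of the series-wide lists were the exact bases shared by a call of each replicate. The gene table (Xenopus_laevis_v10.1) reached past the last peak on 18 of 18 chromosomes and was not used for positions.

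Overlaps, widths, flanks and gaps were computed from the deposited positions in Python 3.11.15 (numpy 2.4.6, scipy 1.17.1), after the code had been tested on simulated lists. A flank is the 10 kb on each side of a peak. Overlapping flanks of neighbouring peaks were each counted. Values were taken per homeologous chromosome pair, and differences were tested by an exact permutation test that flips the signs of the 9 pair differences (two-sided), with Benjamini-Hochberg adjustment over 8 tests and a threshold of 0.05. Medium-width peaks are at least 1000 but under 2500 bp wide.

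The domains, the comparisons and the rule for named regions were chosen with earlier results of these data known. Regions were named as the 10 widest, the 10 with most p300, the widest of each chromosome, those at the width limit, the extremes of p300 share, of replicate width and of flank p300, and 3 windows of 100 kb with most domains (ties by p300 intervals at them); not all are printed. Alternatives covered the width limit, the overlap, single-replicate lists, joined pieces, flank lengths and leaving out each chromosome pair.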

Additional observations from a re-analysis of the deposited data

Results flagged for a closer look

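Broad H3K4me3 peaks on unplaced scaffolds, which the L and S comparisons do not use, also held p300. Of 153 scaffold peaks of 2500 bp or more, 79 overlapped p300, or 51.6% (Wilson 95% interval 43.8 to 59.4%), with a median width of 3347 bp for those with p300. Their subgenome is not given by their names, and no difference from the L and S chromosomes was tested.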

How the results depend on the processing

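The contrasts in flank p300, in H3K4me3 neighbours within 10 kb, in position inside the domain and in p300 width kept their direction and their call under every alternative run. For position and p300 width, every alternative still used groups set by H3K4me3 width and p300 intervals selected by overlap. Those runs therefore cannot separate these 2 contrasts from that selection. The flank log2 ratio of broad peaks with over without p300 was 1.09 in the replicate 2 lists and 1.36 in the replicate 1 lists. The number of domains was 394 from 4000 bp, 1872 and 2466 in the single-replicate lists, and 2169 as their mean under the replicate block. H3K4me3 intervals were nowhere closer than 637 bp, so joining those under 500 bp apart changed nothing; joining under 1000 bp gave 1529 domains. The contrast in broad neighbours was 6.56 points from 3000 bp (exact test, adjusted p = 0.0357) and 3.34 points from 4000 bp (exact test, adjusted p = 0.313). It turned negative at 200 kb (-1.75 points) and with pieces joined under 1000 bp (-0.67), and the single-replicate lists gave -1.22 to 2.09; with 1 pair left out it was 1.39 to 3.48. The L to S difference between broad peaks with and without p300 passed from 3000 bp (0.42) but not from 4000 bp (0.69, exact test, adjusted p = 0.121). Over single pairs left out it lay between 0.15 and 0.29, and the single-replicate lists gave 0.036 to 0.18. The L minus S flank contrast passed only from 4000 bp (-0.52, exact test, adjusted p = 0.0417). It was 0.0070 under the replicate block, -0.028 to 0.042 in the single-replicate lists and -0.34 to 0.0027 with 1 pair left out. The causes were not tested. Replicate numbers here join an H3K4me3 and a p300 library that share only a number. Unknown depth and threshold limit what an absent p300 call means.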
